A study of Mus musculus with 8 samples.

Results

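The SR splicing factor genes of mouse, Srsf1 to Srsf7 and Srsf9 to Srsf11, were followed through arsenite stress and recovery in NIH3T3 cells, an established line of mouse fibroblasts. The 10 genes were taken from a list of SR protein genes by symbol, with no measured value in the rule although earlier results of these data were known, and all 10 were present in each of the 3 deposited tables of genes. The tables together list 10690 genes, of which 9875 are in all 3. NT cells were untreated. AS cells were kept for 1 h in medium with 250 μM sodium arsenite, an agent of oxidative stress. RC4 and RC8 cells received that same treatment, were washed, and recovered in regular medium, RC4 for 4 h and RC8 for 8 h. Each of the 4 conditions has 1 library of QuantSeq FWD, a method that reads the 3′ part of polyadenylated RNA, so no spread between cultures could be measured and no test across conditions was possible.

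SR proteins have 1 or more RNA recognition motifs and a region rich in arginine and serine, the RS domain. They bind exonic enhancers, help to recruit the spliceosome to nearby splice sites, and also act in mRNA export, translation and 3′ end formation. Kinases of the SRPK and CLK families phosphorylate the RS domain, which governs where the proteins are in the cell and what they bind. Many SR genes control their own mRNA through highly conserved exons whose inclusion brings a premature stop codon and nonsense-mediated decay. Since QuantSeq reads come from the 3′ end, they do not show whether such an exon is included. A polyadenylation site (PAS) is the position where the transcript is cut and its poly(A) tail is added, and a gene with several PASs can make mRNAs with different 3′ untranslated regions (3′UTRs).

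The libraries had 22.4 M to 23.0 M reads on genes. A level is given as the gene's reads per 1000000 reads on genes (RPM) with an exact 95% Poisson interval, and a change as the log2 ratio of RPM in 2 libraries with an exact conditional binomial 95% interval. Shares of reads have 95% Wilson intervals. All intervals cover counting error only, and without molecular identifiers several reads can come from 1 molecule. A gene was counted as lower or higher when its RPM differed by at least 1.5-fold, that is by 0.58 on the log2 scale, which describes 2 libraries and is no test. NT reads are listed once per table, and the NT level of an SR gene differed by at most 0.556% between tables. RPM is not divided by transcript length, so the levels of different SR genes were not compared with each other. All 8 fibroblast markers checked were listed, and 12 markers of epithelial cells, leukocytes and endothelial cells were in none of the tables. Of 8 genes that arsenite is known to induce, 5 were listed, and these were at least 1.5-fold higher in AS and in RC4. In RC8 this held for 4 of them, and Egr1 was the exception, with a log2 ratio of −0.29.

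The tables place 29 PASs in the 10 SR genes, of which 28 are called 3′-most exon and 1, in Srsf10, intronic. Srsf4 has 1 PAS and the other 9 genes have more than 1. Positions are the same in all 3 tables for 7 genes, whereas for Srsf3, Srsf10 and Srsf11 they differ between tables. Within 40 nt upstream of the PAS, on the sense strand of the mm9 genome, 14 of the 29 PASs (48.3%) have AATAAA or ATTAAA, the canonical poly(A) signals, compared with 51.9% of all 21565 PASs listed. The reverse complement of the signals is present in the same window at 13.8% of PASs of SR genes and 9.94% of all PASs. The 30 nt that end at the PAS are given here for PASs of Srsf2, Srsf7, Srsf9, Srsf10 and Srsf11 whose shares are compared below, each 5′ to 3′, with the signal in capitals where these 30 nt hold it.
Srsf2 proximal PAS, chr11:116711949-116711978, minus strand: tgtttgaaATTAAAcagattggtaacctaa
Srsf2 middle PAS, chr11:116711357-116711386, minus strand: ccttgtgttgtgaacttttaaaaaaaaaat
Srsf2 distal PAS, chr11:116711218-116711247, minus strand: aaagtgttttcttggtgttagcttttttga
Srsf7 proximal PAS, chr17:80600652-80600681, minus strand: tgacacgtttaAATAAAatgtttctaacta
Srsf7 distal PAS, chr17:80599460-80599489, minus strand: ggttagctttaattgttctgtattcaaaaa
Srsf9 first PAS, chr5:115783033-115783062, plus strand: ggagatggggcccgaggggcccgttttgtt
Srsf9 second PAS, chr5:115783147-115783176, plus strand: aagagaaccatcatttgagttgtcatggaa
Srsf10 intronic PAS, chr4:135414482-135414511, plus strand: ttaatccaaaAATAAAcctttaaattccca
Srsf10 main PAS, chr4:135423084-135423113, plus strand: acttcaagaaagatctgaaagcggaaaaaa
Srsf11 main PAS in the AS and RC4 tables, chr3:157673883-157673912, minus strand: actttgatAATAAAacccttaaactcacaa
Srsf11 main PAS in the RC8 table, chr3:157673917-157673946, minus strand: tgttgatgtacagtttctgaaattgtttta
The distal PAS of Srsf2 has ATTAAA beginning 33 nt upstream, outside the printed stretch. At the middle PAS of Srsf2, the distal PAS of Srsf7, both PASs of Srsf9, the main PAS of Srsf10 and the RC8 main PAS of Srsf11, neither the canonical signals nor any of the 9 variants searched were found within 40 nt. Each variant differs from the most common signal by a single base. The first base is changed in TATAAA, and likewise in the forms CATAAA and also GATAAA. The second base is changed in AGTAAA, and in the further form ACTAAA. An inner base is changed in AATGAA, and the base before the last is changed in AATATA, as it is in the forms AATACA and lastly AATAGA. The main PAS of Srsf10 and the RC8 main PAS of Srsf11 are the 2 PASs of SR genes with a genomic A tract within 20 nt downstream, a feature of 8.31% of all PASs, here defined as a run of 6 A or as 10 nt with 7 A. At the RC8 main PAS of Srsf11, that tract includes the AATAAA printed above for the main PAS of the AS and RC4 tables. Only sequence downstream of the PAS was searched for A tracts. The run of A just before the middle PAS of Srsf2, printed above, was therefore not counted. An A tract can bind the oligo(dT) primer, and its part in the reads at these PASs, the middle PAS of Srsf2 included, was not tested.

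The levels of the SR genes differed most from NT after 4 h of recovery. In RC4 all 10 were below NT, and 8 were at least 1.5-fold lower, compared with 31.8% of all genes. Srsf5 had the largest ratio, with 46.95 RPM in RC4 against 161 in NT, or 3.44-fold. In AS none of the 10 was 1.5-fold lower or higher, compared with 11.4% and 1.88% of all genes, and in RC8 none was, compared with 11.9% and 11.3%. The SR genes together made up 3318 RPM in NT, 3531 in AS and 2029 in RC4, and came to 3380 in RC8.

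**Figure D1:**
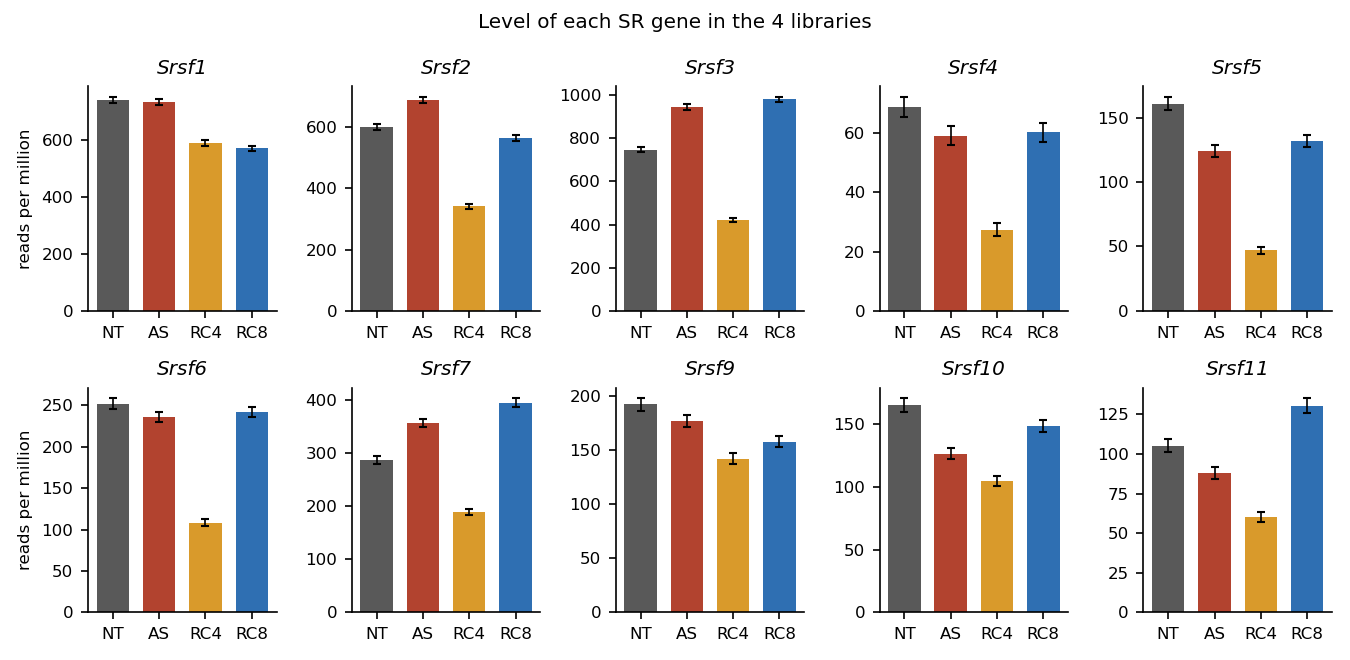
Level of each SR gene in the NT, AS, RC4 and RC8 libraries, in RPM (vertical axes start at 0 and differ between genes); bars are single libraries and error bars are exact 95% Poisson intervals. RC4 has the lowest bar for 9 of the 10 genes, and for Srsf1 the lowest is RC8.

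Srsf1 (chr11:87860875-87867257, plus strand in mm9), a shuttling SR protein that promotes exon inclusion and also acts in translation and nonsense-mediated decay, had 740.4 RPM in NT, 732 in AS, 589.7 in RC4, with 570.0 in RC8. NT and AS did not differ beyond counting error, and both recovery libraries were below them. On the RPM scale it was the only SR gene that was lower in RC8 than in RC4, with a log2 ratio of −0.05 (−0.08 to −0.01). With the median gene of each comparison set to a ratio of 1, Srsf9 was also lower in RC8. Its log2 ratios over NT on that scale were −0.29 in RC8 and −0.13 in RC4. Srsf2 (chr11:116711215-116714408, minus strand), a marker of nuclear speckles, had 601 RPM in NT, 688 in AS, 341 in RC4, with 566 in RC8. Here AS was the highest library and RC4 the lowest, 2.02-fold below AS.

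Srsf3 (chr17:29169618-29180311, plus strand), the smallest SR protein and an adaptor for mRNA export, had 746 RPM in NT, 944 in AS, 420.0 in RC4, with 979 in RC8. Srsf7 (chr17:80599429-80606629, minus strand), another export adaptor that also carries a zinc knuckle, had 286 RPM in NT, 357 in AS, 189 in RC4, with 395 in RC8. On the RPM scale these genes had the same order of libraries, with RC4 below NT, NT below AS and AS below RC8. Neighbours in that order differed beyond counting error in both. With the median gene of each comparison set to a ratio of 1, AS and RC8 were nearly equal in Srsf3. Its log2 ratios over NT were then 0.380 in AS and 0.387 in RC8.

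Srsf4 (chr4:131429532-131457640, plus strand), Srsf5 (chr12:82046491-82051494, plus strand) and Srsf6 (chr2:162757264-162762857, plus strand) encode SR proteins with a pair of RNA recognition motifs. Srsf4 had 68.8 RPM in NT, 59.2 in AS, 27.5 in RC4, with 60.3 in RC8. Srsf5 had 161 RPM in NT, 124 in AS, 46.95 in RC4, with 132 in RC8. Srsf6 had 252 RPM in NT, 236 in AS, 108 in RC4, with 242 in RC8. In all 3 genes RC4 was the lowest library and NT the highest, and the AS and RC8 levels of Srsf4 and of Srsf6 did not differ beyond counting error.

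Srsf9 (chr5:115777186-115783089, plus strand), whose protein has a short RS domain, had 192 RPM in NT, 177 in AS, 142 in RC4, with 157 in RC8. Its range was narrow, with the highest library 1.35-fold above the lowest, compared with 1.30-fold for Srsf1 and 1.58-fold to 3.43-fold for the other SR genes. Srsf10 (chr4:135411662-135425823, plus strand), known as a splicing repressor that is dephosphorylated upon heat shock, had 165 RPM in NT, 127 in AS, 105 in RC4, with 149 in RC8. Srsf11 (chr3:157673437-157699603, minus strand), a more distant relative of the other SR proteins, had 105 RPM in NT, 88.0 in AS, 60.1 in RC4, with 130.4 in RC8. Srsf3, Srsf7 and Srsf11 were the genes with RC8 as the highest library.

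In AS over NT, the log2 ratios of the SR genes lay between −0.39 and 0.34 with a median of −0.11, compared with −0.04 over all 10452 genes of the table. None of the 10 was at least 1.5-fold lower, and 11.4% of all genes were. None was at least 1.5-fold higher, compared with 1.88% of all genes. Within these limits the genes split by direction. Intervals were above 0 for Srsf3, at 0.34 (0.31 to 0.37), Srsf7, at 0.32 (0.27 to 0.36), and Srsf2, at 0.20 (0.16 to 0.23). The interval of Srsf1 included 0, at −0.02 (−0.05 to 0.02). The remaining 6 were below 0, of which Srsf10, at −0.39 (−0.46 to −0.32), and Srsf5, at −0.38 (−0.45 to −0.31), had the lowest values.

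In RC4 over NT, 8 of the 10 SR genes were at least 1.5-fold lower, where 31.8% of the 10081 genes of the table were. None was 1.5-fold higher, compared with 8.04% of all genes. The 2 genes short of the fold were Srsf1, at a log2 ratio of −0.33 (−0.36 to −0.30), and Srsf9, at −0.43 (−0.50 to −0.37). The lowest ratios were those of Srsf5, at −1.78 (−1.88 to −1.68) or 3.44-fold, Srsf4, at −1.33 (−1.46 to −1.19) or 2.51-fold, and Srsf6, at −1.23 (−1.30 to −1.16) or 2.34-fold. These were the 3 SR genes past 2-fold, which 13.4% of all genes were in the same direction. Srsf3, Srsf2 and Srsf11 lay close together at −0.83, −0.82 and −0.81. Srsf10 was at −0.67 and Srsf7 at −0.60, just past the fold.

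The median log2 ratio over all genes in RC4 was −0.30 on this scale, and that of the SR genes was −0.82. With the median gene set to a ratio of 1, the SR genes had a median of −0.51 and all 10 were still below 0, Srsf1 by less than its counting error. On that scale Srsf4, Srsf5 and Srsf6 were at least 1.5-fold lower and none was higher, where 17.4% of all genes were lower and 15.0% higher. Levels are relative to all reads on genes of bulk RNA, so a lower level of a gene cannot be told apart from higher levels of others, nor fewer cells with its RNA from less RNA per cell.

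**Figure D2:**
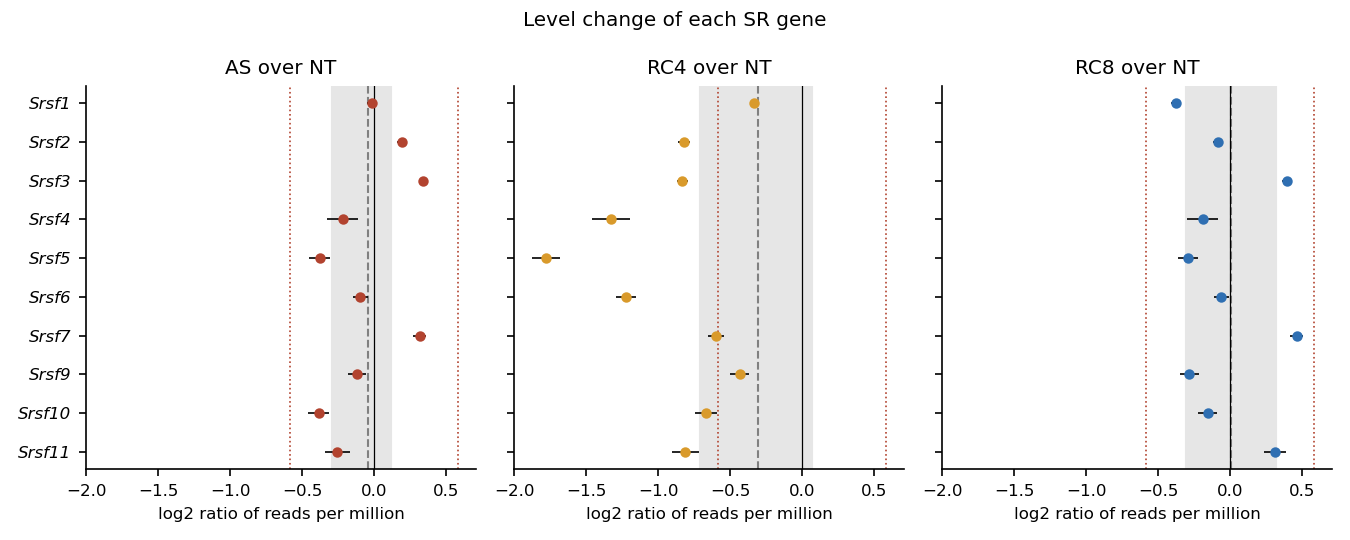
Log2 ratio of RPM over NT for each SR gene in AS, RC4 and RC8; points are single ratios, horizontal lines are exact conditional 95% intervals of counting error, grey bands run from the lower to the upper quartile of all genes, dashed lines are the median of all genes, and dotted lines are 1.5-fold. In RC4 all 10 points lie below 0 and 8 lie beyond the dotted line, while in AS and RC8 all points lie between the dotted lines.

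Set against AS, 6 SR genes were at least 1.5-fold lower in RC4, namely Srsf2 to Srsf7, compared with 26.6% of the 9940 genes shared by the tables, and none was higher, compared with 12.5%. Srsf5 was 2.64-fold lower in RC4 than in AS, and Srsf3 2.25-fold. Between RC4 and RC8, 7 SR genes were at least 1.5-fold higher in RC8, namely Srsf2 to Srsf7 and Srsf11, compared with 30.6% of 9972 genes. None was lower, and 6.59% of all genes were. Srsf5 was 2.80-fold higher in RC8 than in RC4, Srsf3 2.33-fold, Srsf6 2.24-fold and Srsf4 2.19-fold. Comparisons among AS, RC4 and RC8 join tables that were made separately. The median log2 ratio over all genes was −0.22 for RC4 over AS and 0.26 for RC8 over RC4. These counts were not repeated with the median gene set to a ratio of 1.

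In RC8 over NT, none of the SR genes was at least 1.5-fold lower, compared with 11.9% of the 10441 genes of the table, and none was higher, compared with 11.3%. The median log2 ratio was −0.12 for the SR genes and 0.01 for all genes. Intervals were above 0 for Srsf7, at 0.46 (0.42 to 0.51), Srsf3, at 0.39 (0.36 to 0.42), and Srsf11, at 0.31 (0.23 to 0.39). Srsf7 was the nearest of the 10 to the 1.5-fold limit without reaching it. The other 7 had intervals below 0, from −0.38 (−0.41 to −0.34) in Srsf1 to −0.06 (−0.11 to −0.01) in Srsf6. Hence RC8 levels of the SR genes lay between 0.77 and 1.38 times those of NT.

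In the PAS tables, the share of a PAS is the part of the gene's reads assigned to it. MAAPER, the program the authors used, assigns reads to PASs by their distance, since the reads begin some way upstream of the PAS. Positions less than 300 nt apart are therefore hard to keep apart, so shares are also given with such PASs added up, a choice made after the values had been seen. Added up in this way, Srsf5 and Srsf9 have a single group of PASs, and 7 SR genes have more than 1.

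In AS, no share in the 9 SR genes with several PASs moved by 10 percentage points, compared with 15.2% of 5287 genes. The largest difference was 4.8 points, in Srsf6. With close PASs added up, 0 of 7 SR genes and 13.8% of all genes passed 10 points. In RC4, 1 of 9 SR genes passed 10 points, compared with 29.1% of 5343 genes, and with close PASs added up it was 0 of 7 compared with 29.3%. In RC8, 3 of 9 SR genes passed, compared with 26.9% of 5357 genes, and with close PASs added up it was 1 of 7 compared with 21.3%. Just inside the limit was Srsf2 in RC4, at 10.6 points. Just outside were Srsf6 in RC4, at 9.8 points between PASs 159 nt apart, and Srsf10 in RC8, at 8.47 points.

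**Figure D3:**
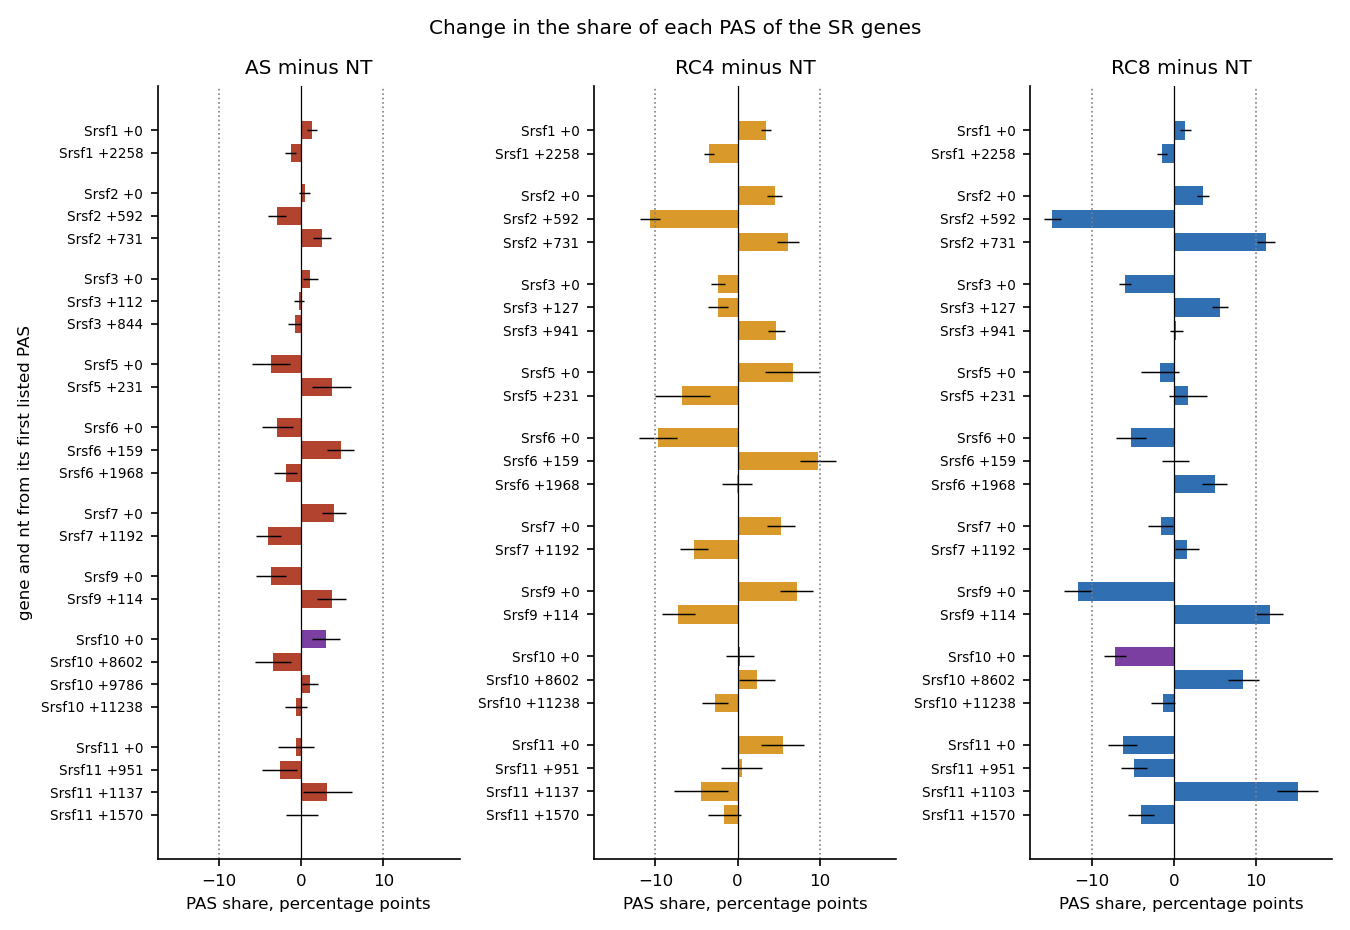
Change in the share of each PAS in AS, RC4 and RC8, as treated minus NT in percentage points, for the 9 SR genes with more than 1 PAS; PASs are named by their distance in nt from the first listed PAS of the gene, error bars are 95% intervals of counting error, dotted lines are 10 points and the purple bars are the intronic PAS of Srsf10. All bars of AS lie within the dotted lines, and bars of Srsf2, Srsf9 and Srsf11 cross them in RC8.

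In Srsf2, the middle PAS, which has no canonical signal and follows a run of A, held 32.2% of the reads in NT and 29.2% in AS. Its share was 21.3% (20.4% to 22.2%) in RC4 and 17.0% (16.4% to 17.7%) in RC8, each with 31.8% to 31.9% in NT of the same table. The distal PAS, 139 nt farther on, held 58.6% in NT, 61.1% in AS, 64.9% in RC4, with 70.2% in RC8. The proximal PAS held 9.26% in NT, 9.7% in AS, 13.8% in RC4, with 12.8% in RC8. In reads, the middle PAS stood at 193 RPM in NT, 201 in AS, 72.6 in RC4, with 96.2 in RC8, while the distal PAS was at 352, 421, 222 and 397 RPM. In RC8 the middle PAS was thus below its NT level, at 50.4% of it, and the distal PAS above, at 112%. With the middle and distal PASs added up, their share was 90.7% in NT, 90.3% in AS, 86.2% in RC4, with 87.2% in RC8.

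In Srsf9, both PASs lack a signal among those searched and lie 114 nt apart, the second of them 87 nt beyond the end of the gene in GENCODE vM1. The first held 24.0% of the reads in NT, 20.3% in AS, 31.5% (29.9% to 33.1%) in RC4, with 11.9% (10.9% to 13.0%) in RC8. It was at 46.0 RPM in NT, 35.9 in AS, 44.7 in RC4, with 18.7 in RC8. The second PAS, by contrast, was at 146 RPM in NT, 141 in AS, 97.2 in RC4, with 139 in RC8. In RC4 only the second PAS was clearly below NT, and in RC8 only the first was at least 1.5-fold below it.

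In Srsf11, the first listed PAS lies in coding sequence of GENCODE vM1, and the tables call it 3′-most exon. It held 15.7% of the reads in NT, 15.1% in AS, 21.2% (19.1% to 23.4%) in RC4, with 9.48% (8.48% to 10.6%) in RC8. The main PAS of the RC8 table, 34 nt from that of the other tables, held 60.7% in NT and 75.8% (74.2% to 77.3%) in RC8. Together with the PAS less than 300 nt upstream, the main PAS held 72.8% in NT, 73.3% in AS, 68.9% in RC4, with 83.0% in RC8. Srsf11 was the SR gene that passed 10 points with close PASs added up, in RC8 and only just, at 10.2 points.

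Srsf10 is the SR gene with an intronic PAS, 8602 nt before the first PAS of its 3′-most exon and in an exon of a processed transcript in GENCODE vM1. This PAS has AATAAA 20 nt upstream. It held 13.3% (12.2% to 14.4%) of the reads in NT, 16.3% (15.0% to 17.7%) in AS, 13.6% (12.3% to 15.0%) in RC4, with 6.12% (5.37% to 6.98%) in RC8. In reads it was at 22.0 RPM in NT, 20.6 in AS, 14.2 in RC4, with 9.10 in RC8. RC8 was thus the lowest library for the intronic PAS. The main PAS was at 123 RPM in NT, 89.5 in AS, 80.1 in RC4, with 123 in RC8, so its RC8 level was that of NT. Its REDi, the log2 change in the ratio of a 3′-most exon PAS to an internal PAS, was −0.36 (−0.56 to −0.16) in AS, −0.38 (−0.69 to −0.08) in RC4, with 1.27 (1.03 to 1.52) in RC8. The RC4 score uses another 3′-most exon PAS than the others, because it is taken at the PAS with the largest change in share. In RC4 the intronic PAS was at 64.3% of its NT level and the main PAS at 64.9%. The ratio of the main to the intronic PAS was thus nearly that of NT in RC4, unlike in AS and RC8. An internal PAS was listed for 1 of the 10 SR genes, compared with 15.6% to 16.8% of all genes, so the SR count was not far from that share. Internal PASs held 0.27% to 0.70% of the reads of all SR genes together, compared with 8.09% to 9.41% of the reads of all genes. The SR value comes from Srsf10 alone.

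**Figure D4:**
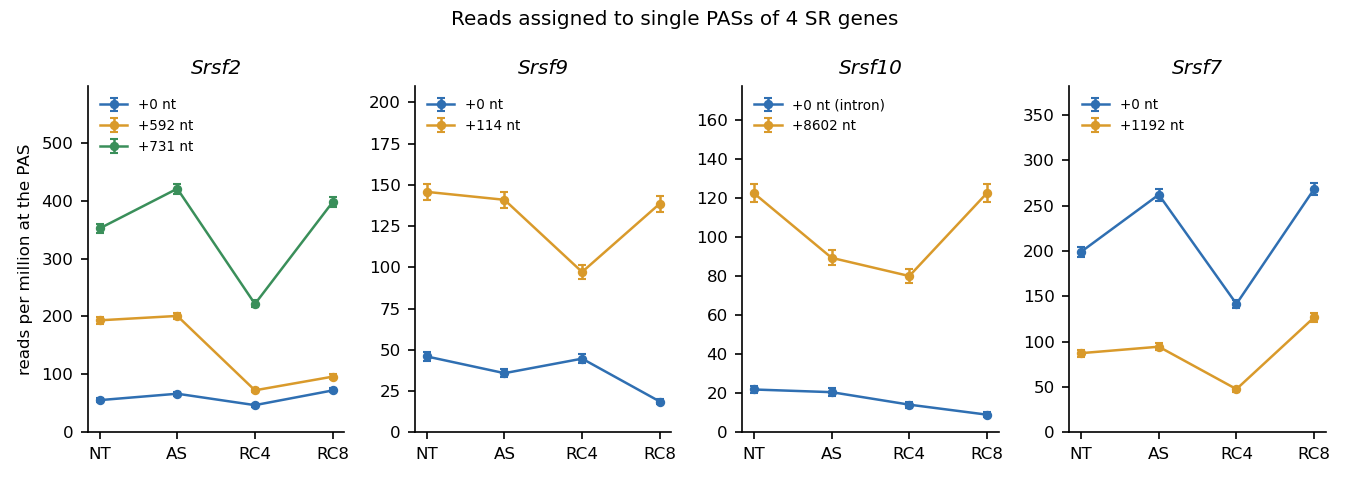
RPM assigned to single PASs of Srsf2, Srsf9, Srsf10 and Srsf7 in the 4 libraries, with PASs named by their distance in nt from the first listed PAS; NT is the value of the AS table, error bars are 95% intervals of counting error, and a PAS of Srsf10 whose NT value differs between tables is left out. The intronic PAS of Srsf10 ends at 9.10 RPM in RC8 while the main PAS is back at 123 RPM, and the middle PAS of Srsf2 is at 96.2 RPM in RC8 against 193 in NT.

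The PASs of Srsf7 and Srsf1 lie far apart, 1192 and 2258 nt, so that their shares do not depend on PASs close together. In Srsf7, the distal PAS held 30.5% (29.4% to 31.6%) of the reads in NT, 26.5% (25.5% to 27.5%) in AS, 25.2% (23.9% to 26.5%) in RC4, with 32.1% (31.1% to 33.1%) in RC8. In Srsf1, where both PASs have AATAAA 23 nt upstream, the distal PAS held 9.66% (9.23% to 10.1%) in NT, 8.35% (7.94% to 8.79%) in AS, 6.24% (5.84% to 6.66%) in RC4, with 8.24% (7.78% to 8.72%) in RC8. In both genes the distal share was lowest in RC4. In Srsf6, the most distal PAS held 18.5% in NT, 16.6% in AS, 18.4% in RC4, with 23.5% (22.4% to 24.6%) in RC8, and it lies 1968 nt from the first. In Srsf3, the distal PAS held 18.7% in AS, against 19.5% in NT of that table. It held 24.7% (23.9% to 25.6%) in RC4 and 20.3% in RC8, against 20% in NT of those tables. The direction of the RC4 difference in Srsf3 was therefore opposite to that in Srsf1 and Srsf7. In Srsf5, the second PAS, 231 nt after the first, held 63.0% in NT, 66.7% in AS, 56.2% (53.2% to 59.1%) in RC4, with 64.7% in RC8.

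REDu is the log2 change in the ratio of the distal to the proximal PAS of the 3′-most exon, taken at the pair of PASs with the largest changes in share, so a negative value means relatively more of the proximal PAS. Over the 9 SR genes its median was 0.23 in AS, −0.40 in RC4, with 0.49 in RC8, compared with −0.23, −0.36 and −0.14 over all genes with a score. Of the 9 SR genes, 3, 6 and 2 had a negative REDu in AS, RC4 and RC8. The shares of all genes with a score were 67.4%, 68.4% and 55.6%. In AS, the interval was below 0 for 3 SR genes, namely Srsf1, Srsf3 and Srsf7, and above 0 for 6. Of these 6, the scores of Srsf2, Srsf5, Srsf6, Srsf9 and Srsf11 are between PASs less than 300 nt apart, and that of Srsf10 was −0.044 when only PASs at 5% or more in both libraries were used, so the AS median of 0.23 rests on such scores. In RC4 the interval was below 0 for 6 genes and above 0 for Srsf2, Srsf3 and Srsf6. The RC4 scores of Srsf2, Srsf5, Srsf6 and Srsf9 are between PASs less than 300 nt apart. In RC8 the interval was below 0 for Srsf1 and Srsf10, above 0 for 6, and included 0 for Srsf5. The RC8 scores of Srsf2, Srsf3, Srsf5 and Srsf9 are between PASs less than 300 nt apart. The lowest score was that of Srsf1 in RC4, at −0.69 (−0.81 to −0.56). The highest were those of Srsf9 in RC8, at 1.19 (1.02 to 1.37), and Srsf2 in RC8, at 1.15 (1.07 to 1.24), both between PASs less than 300 nt apart. Srsf1 had a REDu below 0 in all 3 comparisons, and Srsf10 in RC4 and RC8. In AS the score of Srsf10 was above 0, and no interval was given for its −0.044 with the 5% limit.

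Genes that work with SR proteins were counted in the same way. Of a list of 25 genes of SR kinases, SR-related proteins and partners, 24 were in the tables and Rnps1 was not. In AS, 1 of the 24 was at least 1.5-fold higher, compared with 1.88% of all genes, and none was lower, compared with 11.4%. In RC4, 9 (37.5%) were lower, where 31.8% of all genes were, and none was higher, compared with 8.04%. In RC8, 3 (12.5%) were lower, near the 11.9% of all genes, and none was higher, compared with 11.3%. Their median log2 ratios were −0.09, −0.40 and −0.22, against −0.11, −0.82 and −0.12 for the SR genes.

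The gene that was higher in AS was Clk1, a kinase of SR proteins, with 26.0 RPM in NT, 45.2 in AS, 25.8 in RC4, with 24.0 in RC8. Its log2 ratio in AS was 0.80 (0.65 to 0.95). Clk4, a close relative, had 23.2 RPM in NT, 30.5 in AS, 17.6 in RC4, with 19.4 in RC8. Among the cytoplasmic SR kinases, Srpk2 had log2 ratios of −0.29, 0.29 and −0.04, and Srpk1 of 0.03, −0.43 and 0.06. NT reads of Srpk1 differed between tables, with 131 RPM in that of AS and 109 in that of RC8. Tra2b, an SR-like splicing activator, was at 183 RPM in NT and 250 in AS, a log2 ratio of 0.45 (0.39 to 0.51). Its paralog Tra2a was at 118 RPM in NT and 61.5 in RC8, at −0.94 (−1.03 to −0.84).

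Past 2-fold in RC4 were 5 of the 24 SR-related genes, all lower, compared with 13.4% of all genes lower and 3.69% higher. Pnn, a nuclear speckle protein, was at a log2 ratio of −1.84 (−1.97 to −1.72). Srrm1, a splicing coactivator with RS repeats, was at −1.49 (−1.56 to −1.41). Acin1, a component of the exon junction complex periphery, was at −1.09, Luc7l3, a U1-associated protein, at −1.07, and Rbm39, a partner of U2AF, at −1.06. None of these 5 was past 2-fold in AS or RC8.

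Of 10 genes of nonsense-mediated decay, 2 were at least 1.5-fold lower in AS, 4 in RC4 and none in RC8, where the shares of all genes were 11.4%, 31.8% and 11.9%. In RC8, 1 of the 10 was higher, compared with 11.3% of all genes. Smg1, the kinase that acts on Upf1, was at 14.6 RPM in NT and 3.83 in AS, a log2 ratio of −1.93 (−2.29 to −1.58). Upf3b, which links Upf2 to the exon junction complex, was at 37.4 RPM in NT and 14.7 in RC4, at −1.35 (−1.54 to −1.17). Of 22 hnRNP genes, whose proteins often oppose SR proteins at splice sites, 3 (13.6%) were lower in AS, 5 (22.7%) in RC4, with 2 (9.09%) in RC8, and none was higher in any of them. The shares of all genes were 11.4%, 31.8% and 11.9% lower, and 1.88%, 8.04% and 11.3% higher. The hnRNP counts were thus near or below those of all genes. The median of the hnRNP genes in RC4 was −0.30, which was also the median of all genes. It was below that of all genes in AS, at −0.16 against −0.04, and in RC8, at −0.28 against 0.01.

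The genes whose 3 log2 ratios over NT were nearest to the median profile of the SR genes, by root mean square distance among 7804 genes with at least 200 reads in every library, were Tinagl1 (0.02), Ik (0.02), Cfap20 (0.03), Parn (0.04) and Slc35a1 (0.04). The 3 comparisons share the NT library, so the ratios are not independent of each other.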

How the data were processed

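QuantSeq FWD reads of NIH3T3 cells, 1 library per condition, had been trimmed with bbmap, mapped to mm9 with STAR (2.5.2a per the labels) and analysed with MAAPER and PolyA_DB. Per gene, the authors deposited raw read counts without normalization, in 2 columns per library, for genes with at least 50 reads, and kept PASs at a proportion of 5%. The fraction of a gene's reads at each PAS was deposited by the authors per gene and library. The tables also hold the authors' comparisons (P values, RLD and RED scores), which were not used. The 4 QuantSeq REV libraries were not analysed here.

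The 2 columns of a library had a constant ratio over genes within counting (chi-square per degree of freedom 0.974 to 1.03, lowest unadjusted P 0.0256, in RC8) and were added, not used as replicates. The columns of the first condition were taken as NT, since their reads of the SR genes are nearly equal in all 3 tables. RPM used the total reads on genes of the library in its table, and fractions were rescaled to sum to 1 per gene. Ratios, shares and RED scores were computed in Python 3.11.15 with numpy 2.4.6, pandas 2.3.3 and scipy 1.17.1, drawn with matplotlib 3.10.9, and tested on simulated data. For RED, the counting error came from the reads in its 4 cells by the delta method, on the log2 scale. Sequences were read from NCBIM37, the assembly of mm9, with GENCODE vM1, in which no PAS lay beyond a chromosome end.

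The SR genes and gene lists were chosen with earlier results of these data known. All SR genes were named, as were Clk1, Clk4, Srpk1, Srpk2, Tra2a, Tra2b, genes of the SR-related and nonsense-mediated decay lists past 2-fold and the 5 genes nearest in profile. Egr1 was named after its values had been seen. Alternatives were other scalings, folds, read minimums, single read columns, PAS limits and 0.5 reads added to RED.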

Additional observations from a re-analysis of the deposited data

Results flagged for a closer look

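In 4 of the 10 SR genes, levels lay on opposite sides of NT in different comparisons, with both intervals clear of 0. The share of all genes for which this holds was not computed, so the count cannot be read as particular to SR genes. The log2 ratio over NT of Srsf2 was higher by 1.01 in AS than in RC4. That of Srsf3 was higher by 1.22 in RC8 than in RC4, that of Srsf7 by 1.06 and that of Srsf11 by 1.12. PAS scores taken at the same pair of PASs also lay on opposite sides of 0 in 4 SR genes, again without a share over all genes. The REDu of Srsf5 was higher by 0.64 in AS than in RC4. The REDu of Srsf7 was higher by 0.49 in RC8 than in RC4, and that of Srsf9 by 1.71. The REDi of Srsf10 was higher by 1.64 in RC8 than in AS. With 1 library per condition these differences were not tested, and the PASs of Srsf5 and of Srsf9 are less than 300 nt apart.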

How the results depend on the processing

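No paired analysis was possible because each condition has 1 library and the labels give no replicate numbers. With the median gene set to a ratio of 1, the number of SR genes at least 1.5-fold lower in RC4 was 3 in place of 8 and their median log2 ratio was −0.51 in place of −0.82. At 2-fold that number was also 3. All other medians and counts of lower or higher SR genes over NT were the same or within counting error under the alternatives. These were the other scaling, each read column alone, only genes in all 3 tables and a minimum of 200 reads. The counts of RC4 over AS and of RC8 over RC4 were not repeated under any alternative. Single log2 ratios moved by at most 0.08 with 1 read column and by at most 0.30 with the median gene set to 1. The latter placed all 10 ratios in RC4 and 3 in AS outside their intervals of counting error. The sign differed under a setting in 1 of 30, Srsf1 in AS with the median gene set to 1. With a limit of 5 percentage points, 6 of 9 SR genes had a moved PAS share in RC4 and 6 in RC8, compared with 59.0% and 57.8% of all genes, and with 20 points 0 and 0, compared with 7.32% and 4.97%. With PASs under 300 nt apart added up, chosen after the data were seen, the numbers were 0 and 1. The REDu of Srsf10 in AS was −0.044 in place of 0.40 when only PASs at 5% or more in both libraries were used, since this removed a PAS held by 4.00% of NT reads, and the other 29 REDu and REDi scores stayed within counting error. The single library per condition limits all statements to these libraries.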
